A study of Homo sapiens with 10 samples.

Results

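The mRNAs of 48 assembly factors of the large ribosomal subunit were followed in MDA-MB-231 cells treated with dasatinib. The genes were chosen by symbol from the known pathway, with earlier results of these data known. All 48 were found among the 36687 gene symbols in the count and TPM tables. MDA-MB-231 is an established human cell line from a triple-negative, basal B breast adenocarcinoma, labelled wild type, and dasatinib is an inhibitor of the SRC and ABL kinases. The 10 bulk RNA-seq libraries comprised 2 biological replicates at each of 0, 6, 12, 24 and 48 h, with dasatinib used at 100 nM. The titles call the 0 h cells Sham although their treatment field also names the drug, and the study describes them as untreated. No untreated cells kept for 6 to 48 h are analysed here, so time on the drug and time in culture cannot be told apart, and a single line limits the comparison to these cells.

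Ribosomes are built mainly in the nucleolus, where the long precursor RNA made by RNA polymerase I is folded, modified and cut while ribosomal proteins are added. Assembly factors bind the growing large subunit in turn, open or close its RNA with the energy of ATP or GTP, and leave before the particle starts to translate. The last of them travel with the particle through the nuclear pore and are released in the cytoplasm. In growing tumour cells their genes are usually expressed together with those of ribosomal RNA synthesis, and MYC is a well-known activator of many of them through a DNA element called the E-box.

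The promoters of the members were inspected first, because this is a feature that was not used to choose them. RefSeq promoter windows on GRCh38.p14, from 250 bases before to 50 bases after an annotated start, were matched for 41 of the 48 members, 7 of which have more than 1 annotated start. The members *BOP1*, *DDX18*, *MAK16*, *RPF2*, *RRP1B*, *RRS1* and *URB2* were not matched. The E-box letters CACGTG, which read the same on both strands, were present in 11 of 41 members (26.8%), beside 8.77% of the 27305 genes with a window and 11.8% of the 12160 such genes that passed the filter on low counts. Most of this came from the first 50 bases of the transcript, where 9 of 41 members (22.0%) held an E-box beside 1.12% of all genes and 1.41% of the genes that passed the filter. In the 250 bases before the start alone, 4 of 41 members (9.76%) held it beside 7.73% of all genes and 10.6% of those that passed the filter, so the members lay below the latter. These stretches, shown because they come from members that fell far at 48 h, carry the E-box in capitals and are written 5′ to 3′ on the strand of the gene.
EBNA1BP2 (chr1:43172241-43172258, minus strand): gattcggtggCACGTGga
MRTO4 (chr1:19251809-19251834, plus strand): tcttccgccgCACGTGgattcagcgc
NLE1 (chr17:35142276-35142301, minus strand): ctttctcctcCACGTGgggacgcagg
NOC3L (chr10:94362905-94362930, minus strand): gggacttcggCACGTGtgtcattccc

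With the start base counted as 1, the E-box of *NLE1* begins at base 13 of the transcript, that of *MRTO4* at 15, that of *NOC3L* at 20 and that of *EBNA1BP2* at 43. *PES1* (base 14), *GNL3* (base 7), *GNL2* (base 4), *MDN1* (base 28) and *NOP2* (base 36) hold one in the same stretch. Before the start, *DDX54*, *SDAD1*, *MDN1* and another annotated start of *EBNA1BP2* have one.

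The letters CCGGAAG, the core recognised by ETS-family factors, were searched on both strands, and 21 of 41 members (51.2%) held them beside 12.2% of all genes with a window and 20.6% of those that passed the filter on low counts. In the 250 bases before the start alone, 18 members (43.9%) held them beside 10.2% of all genes and 17.5% of those that passed the filter. The following stretches show this core in capitals for the members with the largest fall at 48 h among those that held it. *EFL1*, the member called higher at 48 h, is also shown. No match of one motif overlapped a match of another of the 4 motifs searched in the members.
EBNA1BP2 (chr1:43172321-43172347, minus strand): caacgacaaaCCGGAAGtatggtttgc
NOP16 (chr5:176388598-176388627, minus strand): ttgtgcacgcCTTCCGGAAGgagtttgtta
BRIX1 (chr5:34915596-34915622, plus strand): gccaccgagaCCGGAAGgaggcggcac
EFL1 (chr15:82262761-82262778, minus strand): gCTTCCGGcggcgtcaga

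In *NOP16* the core occurs on both strands in one overlapping run 10 to 19 bases before the start. The *EFL1* match lies 249 bases before one annotated start and 43 bases before another. The letters TGCGCA, the core of the NRF1 motif, were present in 9 of 41 members (22.0%) beside 9.76% of all genes and 15.1% of those that passed the filter, and TATAAA in 1 member (2.44%), *RPF1*, beside 14% and 9.22%. The 11 members with an E-box had a median log2 fold change at 48 h of -0.91 (range -1.56 to -0.35), beside -0.69 (range -1.49 to 0.61) for the 30 without it. For the ETS core the medians were -0.77 over 21 members with it and -0.70 over 20 without it. Both ranges overlap widely, and a match of letters describes the sequence and does not show that a factor binds there.

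The libraries held 40942913 to 49133774 counts, and 15727 genes, all 48 members among them, passed edgeR's filter on low counts. The line's markers *VIM*, *CD44*, *MSN* and *AXL* were high in every library (87.1 TPM or more), *ESR1*, *PGR* and *CDH1* were at or near 0 (at most 0.144 TPM), and *PTPRC* and *CD3E* of blood cells were at most 0.145 TPM, whereas *FOXA1* (8.63 to 14.1 TPM), *CD24* (3.50 to 22.8 TPM), *EPCAM* (4.80 to 10.2 TPM) and *PECAM1* (0.50 to 3.61 TPM) were not absent. 12 h replicate 1 stood apart, with a highest correlation to any other library of 0.955 against 0.983 to 0.987 for the others, 7.94% mitochondrial mRNA (others 4.91 to 7.24%) and 2.79% mRNA of large subunit ribosomal proteins (others 3.46 to 4.80%). Its log2 difference from 12 h replicate 2 followed gene length (Spearman 0.36 across 15727 genes and 0.38 across the 48 members, which are not independent replicates; -0.04 to 0.14 at the other times). The median absolute log2 difference between the replicates of a member was 0.27 at 12 h and 0.08 to 0.10 at the other times. Where the log2 fold change of a member at 12 h is printed, its value without this library follows.

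Together the members took a smaller share of all counts. Their summed share was 0.775% and 0.794% in the 0 h libraries, 0.743% in each 6 h library, 0.586% and 0.623% at 12 h, 0.513% and 0.501% at 24 h, and then 0.433% and 0.451% at 48 h. Without *NPM1*, the most abundant member, it went from 0.462% and 0.473% at 0 h to 0.286% and 0.298% at 48 h. No treated library, at 6 h or later, reached the share of either 0 h library. Bulk RNA cannot tell less mRNA per cell from fewer cells that make it.

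Each time was tested against the same 2 libraries at 0 h, so these comparisons are not independent of each other, and their values are given side by side. At 6 h, 2 members were lower, *GTPBP4* and *NOC3L*, where 1.49% of all genes tested were lower. At 12 h 22 members were lower (3.22% of all genes), at 24 h 37 (10.2% of all genes) and at 48 h 42 (16.3% of all genes). By edgeR's quasi-likelihood test no member was higher at 6, 12 or 24 h (1.24%, 3.93% and 9.73% of all genes were), none reached an unadjusted p under 0.05 in that direction, and DESeq2 on all libraries called none. At 48 h *EFL1* alone was higher (16% of all genes were). The members' median log2 fold change was -0.13, -0.45, -0.73 and -0.77 at 6, 12, 24 and 48 h, whereas that of all genes tested was 0.01, 0.00, 0.02 and 0.01. Values lay below 0 for 39, 47, 48 and 44 of the 48 members at the 4 times. Both treated libraries lay below both 0 h libraries for 29 members at 6 h, 39 at 12 h, 46 at 24 h and, after 48 h, 44, beside 28.8%, 23.3%, 34% and 37.3% of all genes tested. They lay above both for 3, 1, 0 and 2 members, beside 29.3%, 22%, 35.4% and 37.7%.

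**Figure D1:**
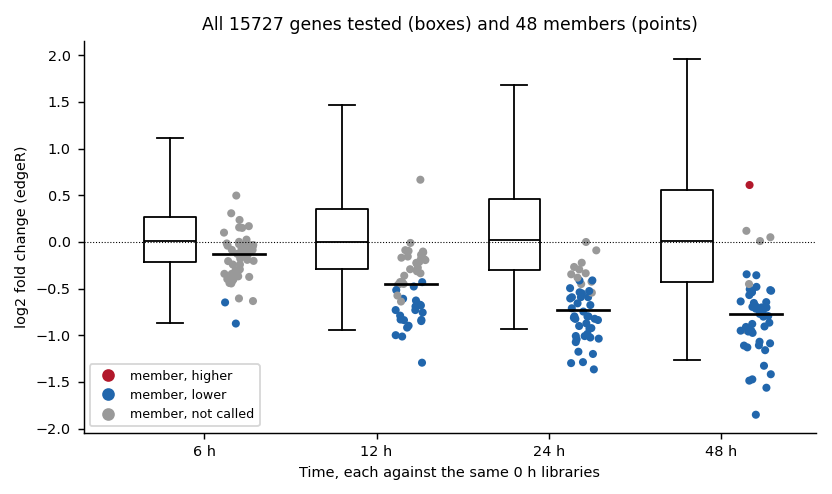
Log2 fold change (edgeR) of every gene tested and of the 48 members at each time against 0 h. Boxes hold the middle of the 15727 genes with their median and whiskers from the 5th to the 95th percentile, points are members coloured by their call, and thick bars are the members' medians, which go from -0.13 at 6 h to -0.77 at 48 h while the boxes stay centred near 0.

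How many members were called at 6 and 12 h depended on single libraries. With any one library of 0 or 6 h left out, a compared time keeps 1 sample, so only the size at 6 h is given. The members' median was then -0.17 to -0.13. With any one library of 24 or 48 h left out, 1 member was lower at 6 h, beside 0.755 to 0.804% of all genes. With either 12 h library left out 16 were lower, beside 9.36 to 9.47% of all genes. In those fits 1 (*EIF6*, log2 fold change 0.31) was higher, beside 9.68 to 9.89% of all genes. At 12 h the members' median was -0.45 without 12 h replicate 1 and -0.43 without 12 h replicate 2. It was -0.51 and -0.45 without 0 h replicate 1 and 2. The count of lower members was 11 or 12 without any one library of the remaining times, beside 1.38 to 1.54% of all genes. At 24 h it ranged from 21 without 24 h replicate 2 (3.37% of all genes lower) to 44 without either 12 h library (20.4 to 20.8% of all genes lower). At 48 h it was 37 or 38 without any one library of 6 or 24 h (12.9% of all genes lower). It was 43 without either 12 h library (25.6 to 26% of all genes lower). The members' median at 48 h was -0.79 to -0.74 with any one library left out. In the fit of all 10 libraries a member was first called at 6 h in 2 cases, at 12 h in 21, at 24 h in 14 and at 48 h in 6, and 5 members were called at no time.

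**Figure D2:**
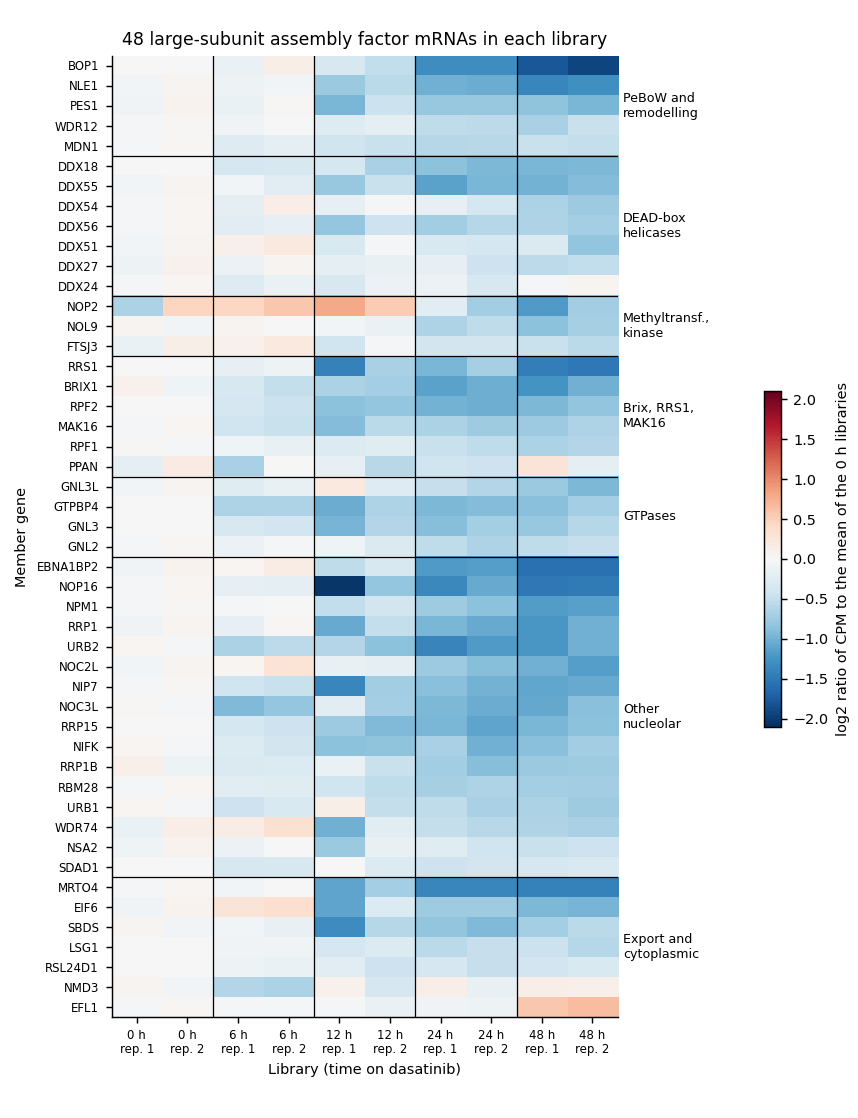
Log2 ratio of TMM-normalised CPM to the mean of the 0 h libraries, for each member (rows, grouped by role and ordered within a role by the change at 48 h) in each of the 10 libraries (columns). Blue is lower and red is higher than at 0 h; nearly all rows turn blue by 24 h, *EFL1* turns red at 48 h, and the 2 libraries at 12 h differ more than the pairs at other times.

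The PeBoW complex, made of *PES1*, *BOP1* and *WDR12*, is needed to cut and fold the RNA that joins the parts of the large subunit rRNA. It is stripped from the particle by the giant ATPase *MDN1*. At a separate step *MDN1* pulls on the adaptor *NLE1*. All 5 genes of this group were lower at 24 h and at 48 h, none at 6 h and 3 (*PES1*, *NLE1*, *MDN1*) at 12 h. *BOP1* (chr8:144262045-144291438, minus strand, GRCh38) had the largest change of any member. Its TMM-normalised CPM was 265 and 264 at 0 h, 241 and 289 at 6 h, 208 and 184 at 12 h, 108 and 107 at 24 h, and then 76.7 and 69.8 at 48 h. The 6 h libraries lay on either side of the 0 h ones, and from 12 h on no library overlapped them. The log2 fold change of *BOP1* was 0.00 ± 0.12 (SE) at 6 h, -0.43 ± 0.12 at 12 h, -1.30 ± 0.12 at 24 h and, after 48 h, -1.85 ± 0.13 (edgeR, n = 2 per time, adjusted p = 0.999, 0.0615, 0.00015 and 8.4e-06), and its mean CPM at 48 h fell by 72.3%. Without 12 h replicate 1 the 12 h change of *BOP1* was -0.52 and was called (adjusted p = 0.00055). *NLE1* was next in this group at 48 h (log2 fold change -1.33), followed by *PES1* (-0.91), *WDR12* (-0.57) and *MDN1* (-0.48).

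DEAD-box RNA helicases unwind RNA and act at separate steps of early large subunit assembly. Of the 7 measured, 3 were lower at 12 h, the same number at 24 h and 6 at 48 h. *DDX18*, the relative of yeast Has1, had the smallest adjusted p at 48 h. It measured 196 and 195 CPM at 0 h, 153 and 155 at 6 h, 152 and 122 at 12 h, 108 and 102 at 24 h and 101 in each library at 48 h, so that every treated library lay below both 0 h libraries. At 48 h the log2 fold change was -0.95 ± 0.12 (SE, edgeR, adjusted p = 0.00023). *DDX55* changed by the same amount (-0.95), and *DDX54* (-0.72), *DDX56* (-0.69), *DDX51* (-0.54) and *DDX27* (-0.53) by less. *DDX54*, *DDX51* and *DDX27* were called at 48 h and at no earlier time.

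*DDX24*, the relative of yeast Mak5, had the smallest change of all members at 48 h and was called at no time. Its CPM was 117 and 124 at 0 h, 100 and 109 at 6 h, 96.0 and 110 at 12 h, 111 and 95.4 at 24 h, and then 117 and 125 at 48 h. It lay below the 0 h libraries at 6, 12 and 24 h and overlapped them at 48 h. On the log2 scale it differed by -0.22 ± 0.12 (SE) at 24 h and 0.01 ± 0.12 at 48 h (edgeR, adjusted p = 0.24 and 0.97).

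Among the enzymes that modify or trim the rRNA, *NOL9*, a kinase that prepares RNA ends during removal of an internal spacer, measured 47.0 and 43.1 CPM at 0 h, 47.0 and 44.7 at 6 h, 43.3 and 41.0 at 12 h, 28.6 and 31.1 at 24 h, and then 24.9 and 27.9 at 48 h. The values up to 12 h overlapped those of 0 h and the later ones did not. The change was -0.59 at 24 h and -0.77 ± 0.12 (SE) at 48 h (edgeR, adjusted p = 0.0076 and 0.0010). *FTSJ3*, a ribose methyltransferase, was lower at 48 h only (-0.52). *NOP2*, a cytosine methyltransferase of the large subunit rRNA, was called at no time. Its row held 13 to 44 counts per library (0.38 and 0.83 CPM at 0 h, 0.81 and 0.90 at 6 h, 1.05 and 0.88 at 12 h, 0.52 and 0.36 at 24 h, 0.27 and 0.36 at 48 h), with a log2 fold change at 48 h of -0.94 ± 0.62 (SE, edgeR, adjusted p = 0.28). In the GENCODE annotation 54.4% of the exonic bases of *NOP2* are shared with a second protein-coding gene model on the same strand that has no row in the count table, so this row is an uncertain measure of the gene.

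The Brix-domain proteins *BRIX1*, *RPF1*, *RPF2* and *PPAN* bind rRNA, and *RPF2* with *RRS1* brings the 5S rRNA particle into the subunit. In this group with *MAK16*, 4 of 6 were lower at 12 h, 5 at 24 h and 5 at 48 h. *BRIX1* (chr5:34915677-34925996, plus strand) had 113 and 100 CPM at 0 h, 84.7 and 75.1 at 6 h, 67.3 and 64.6 at 12 h, 49.1 and 52.2 at 24 h, and then 44.6 and 52.8 at 48 h. All treated libraries lay below both 0 h libraries. On the log2 scale the change was -0.42 ± 0.13 at 6 h and -1.13 ± 0.13 (SE) at 48 h (edgeR, adjusted p = 0.13 and 0.00012). *RRS1* changed most in this group at 48 h (-1.47), then *RPF2* (-0.88), *MAK16* (-0.70) and *RPF1* (-0.65).

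*PPAN* was called at no time. Its CPM was low and varied between replicates, at 6.76 and 8.83 at 0 h, 4.88 and 7.77 at 6 h, 6.92 and 5.21 at 12 h, 5.83 and 5.77 at 24 h, and then 9.37 and 6.76 at 48 h. At 48 h the change on the log2 scale was 0.05 ± 0.27 (SE, edgeR, adjusted p = 0.91). In the annotation 49.2% of its exonic bases are shared with other genes, mostly the read-through gene *PPAN-P2RY11*, so the row is uncertain.

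Of the 4 nuclear GTPases, 1 was lower at 6 h, 2 at 12 h and all at 24 and 48 h. *GTPBP4* is the relative of yeast Nog1 that reaches into the tunnel through which new proteins leave the ribosome. With all 10 libraries in the fit it was the only member called lower at all 4 times. This depended on the fit, since with both 12 h libraries out 16 members were lower at 6 h, beside 1601 of 15473 genes. *GTPBP4* measured 179 and 183 CPM at 0 h, 115 and 116 at 6 h, 87.8 and 115 at 12 h, 94.1 and 96.6 at 24 h, and then 98.8 and 110 at 48 h. All treated libraries lay below both 0 h libraries, and those of 24 and 48 h lay below both of 6 h; 24 h was not tested against 6 h. The log2 fold change was -0.65 ± 0.13 (SE), -0.83 ± 0.13, -0.92 ± 0.13 and -0.79 ± 0.13 at 6, 12, 24 and 48 h (edgeR, adjusted p = 0.032, 0.0064, 0.0012 and 0.0013). The 12 h change was -0.64, and still called, without 12 h replicate 1. The 6 h call was kept in 2 of the 10 fits that left out a library, those without a 12 h library. Exons of *IDI2* on the opposite strand share 15.1% of its exonic bases.

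The paralogs *GNL3*, known as nucleostemin, and *GNL3L* were first called at 12 and 24 h. *GNL3* had 237 and 238 CPM at 0 h, 188 and 180 at 6 h, 120 and 155 at 12 h, 128 and 145 at 24 h, and then 137 and 157 at 48 h. *GNL3L* had 53.5 and 57.9 CPM at 0 h, 46.9 and 49.9 at 6 h, 64.1 and 46.4 at 12 h, 39.8 and 36.2 at 24 h, and then 32.3 and 28.9 at 48 h. All treated libraries were below 0 h for *GNL3*, and for *GNL3L* 12 h replicate 1 was above them. At 48 h the log2 fold changes were -0.70 ± 0.14 (SE) and -0.87 ± 0.16 (edgeR, adjusted p = 0.0035 and 0.0023); the difference between the 2 genes was not tested. Reads that match both paralogs could be split between them. *GNL2*, which acts just before export, fell by 0.51 on the log2 scale at 48 h.

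**Figure D3:**
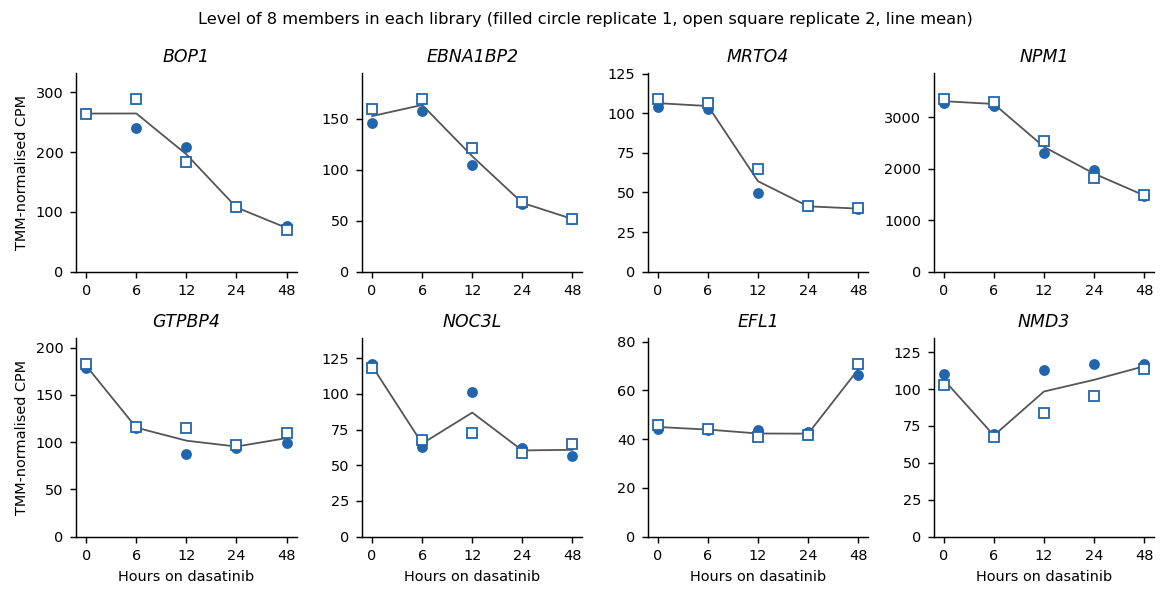
TMM-normalised CPM (y axes from 0) of 8 members in each library against hours on dasatinib (5 time points, evenly spaced). Filled circles are replicate 1, open squares replicate 2 and lines the means; *BOP1*, *EBNA1BP2*, *MRTO4* and *NPM1* stay near the 0 h level at 6 h and fall later, *GTPBP4*, *NOC3L* and *NMD3* are low at 6 h, and *EFL1* rises at 48 h.

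The largest class held 16 other nucleolar factors, of which 1 was lower at 6 h, 8 at 12 h, 14 at 24 h and, after 48 h, 15. *EBNA1BP2* (chr1:43164175-43270936, minus strand), the relative of yeast Ebp2, had 145 and 160 CPM at 0 h, 158 and 169 at 6 h, 105 and 121 at 12 h, 66.8 and 68.2 at 24 h, and then 51.7 and 51.6 at 48 h. It overlapped 0 h at 6 h and lay below it at every later time. Its log2 fold change was 0.10 ± 0.11 (SE) at 6 h, -1.18 ± 0.11 at 24 h and -1.56 ± 0.11 at 48 h (edgeR, adjusted p = 0.75, 0.00015 and 1.2e-05). Exons of *CFAP57* on the opposite strand share 13.7% of its exonic bases. *NOP16*, *URB2*, *NOC2L* and *NIP7* also changed by more than 1 on the log2 scale at 48 h (-1.49, -1.11, -1.09 and -1.07).

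*NOC3L*, which acts with *NOC2L* in moving the particle from the nucleolus to the nucleoplasm, was the other member lower at 6 h. It measured 121 and 118 CPM at 0 h, 62.6 and 67.8 at 6 h, 101 and 72.6 at 12 h, 62.4 and 58.4 at 24 h, and then 56.6 and 65.0 at 48 h. The 6 h values were already as low as those of 24 and 48 h, and the 2 libraries at 12 h differed more than at any other time. The log2 fold change was -0.87 ± 0.15 (SE) at 6 h, -0.46 ± 0.15 at 12 h, -0.98 ± 0.16 at 24 h and, after 48 h, -0.97 ± 0.16 (edgeR, adjusted p = 0.016, 0.10, 0.0019 and 0.00096). Without 12 h replicate 1 its 12 h change was -0.71 and was called. The 6 h call was kept in 6 of 10 fits that left out a library. *NOC2L* was not called at 6 h (log2 fold change 0.17) and fell at 24 and 48 h (-0.82 and -1.09).

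*NPM1*, nucleophosmin, an abundant chaperone of the nucleolus, had the highest level per length of all members, 2958 ± 83 TPM (SD, n = 2) at 0 h, where *SBDS*, the next, had 392 TPM. Its CPM was 3272 and 3353 at 0 h, 3227 and 3290 at 6 h, 2305 and 2545 at 12 h, 1984 and 1828 at 24 h, and then 1468 and 1496 at 48 h. The 6 h values overlapped those of 0 h, and each later time lay below the one before it. Changes on the log2 scale were -0.45 ± 0.12 (SE) at 12 h, -0.80 ± 0.12 at 24 h and -1.16 ± 0.12 at 48 h (edgeR, adjusted p = 0.054, 0.0017 and 9.0e-05). The 12 h change of *NPM1* was -0.37 without 12 h replicate 1 and was then called (adjusted p = 0.0053). Many pseudogene copies of *NPM1* exist, so reads may be shared among them. Across the 48 members the change at 48 h and the level in TPM at 0 h had a Spearman coefficient of -0.23, as a description over genes that share libraries.

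The paralogs *RRP1* and *RRP1B* lie on the same chromosome, at chr21:43789513-43805293 and chr21:43659560-43696079. *RRP1* had 47.1 and 51.6 CPM at 0 h, 43.8 and 50.2 at 6 h, 23.6 and 34.9 at 12 h, 25.4 and 23.7 at 24 h, and then 21.2 and 24.5 at 48 h. *RRP1B* had 121 and 104 CPM at 0 h, 91.0 and 92.9 at 6 h, 103 and 81.4 at 12 h, 67.9 and 60.4 at 24 h, and then 65.5 and 67 at 48 h. With all libraries *RRP1* was called lower from 12 h on and *RRP1B* from 24 h on, but without 12 h replicate 1 both were called at 12 h, at -0.50 and -0.46 (edgeR, adjusted p = 0.0082 and 0.0023). Their log2 fold changes at 48 h were -1.11 ± 0.18 (SE) and -0.77 ± 0.14 (edgeR, adjusted p = 0.0012 and 0.0019); the difference between them was not tested. Without 12 h replicate 2 the 12 h change was -1.07 for *RRP1* and -0.14 for *RRP1B*.

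*NSA2* was the only gene of this class that was not called at any time. It had 107 and 121 CPM at 0 h, 105 and 115 at 6 h, 66.7 and 103 at 12 h, 95.3 and 85.4 at 24 h, and then 82.0 and 84.7 at 48 h, the last 3 times below both 0 h libraries. Its log2 fold change at 48 h was -0.45 ± 0.18 (SE, edgeR, adjusted p = 0.078). Exons of other genes, mainly *FAM169A* on the opposite strand, share 54.4% of its exonic bases, and nothing read here states whether the counting used strand, so this row is uncertain. The remaining members of the class, *RRP15* (-0.91), *NIFK* (-0.80), *RBM28* (-0.72), *URB1* (-0.70), *WDR74* (-0.65) and *SDAD1* (-0.35), were all lower at 48 h. The calls of *WDR74* and *SDAD1* lay near the threshold (edgeR, adjusted p = 0.042 and 0.043). Each was kept in 2 of 10 fits that left out a library. Other genes share 22.3% of the exonic bases of *WDR74*.

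**Figure D4:**
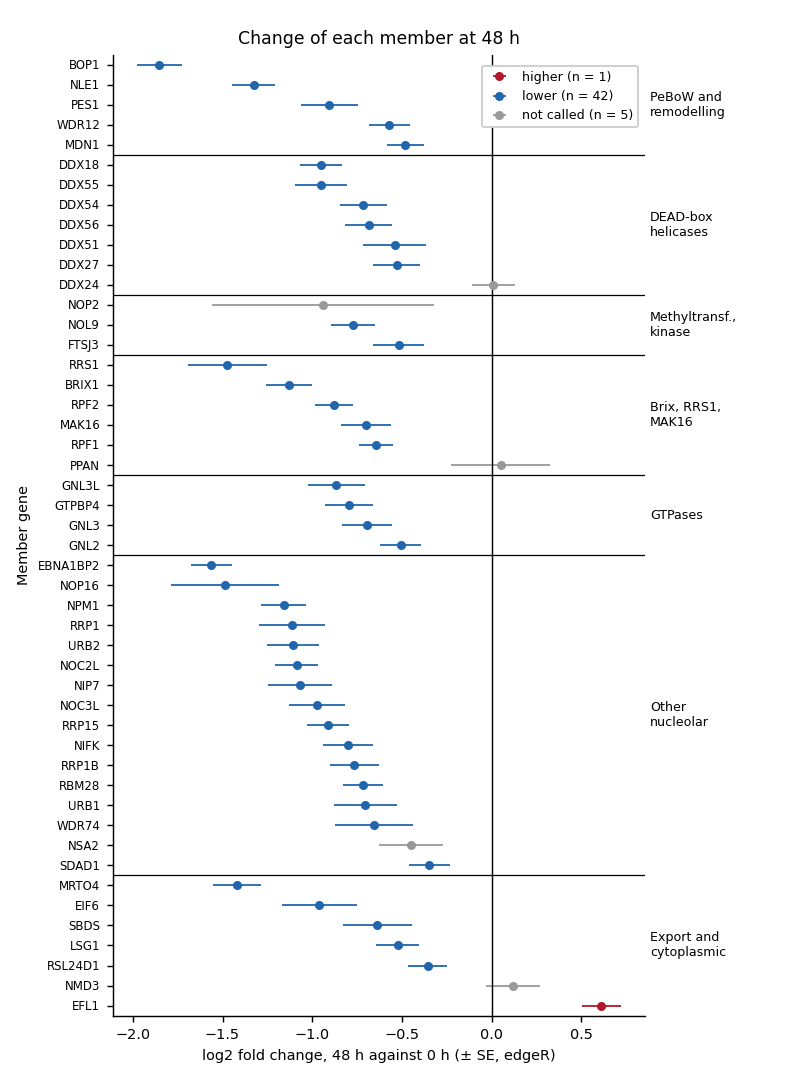
Log2 fold change of each member at 48 h against 0 h (x axis, point) with its standard error (line, edgeR), grouped by role. Blue points are the 42 members called lower, the red point is *EFL1*, the only one called higher, and grey points are the 5 members not called; the changes run from -1.85 (*BOP1*) to 0.61 (*EFL1*).

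The factors of export and cytoplasmic maturation showed the widest range at 48 h, from -1.42 to 0.61 on the log2 scale, with 5 of 7 lower and 1 higher. *MRTO4* (chr1:19251805-19260128, plus strand) holds the place of the stalk protein until the particle is nearly finished. It measured 104 and 109 CPM at 0 h, 103 and 106 at 6 h, 49.5 and 64.6 at 12 h, 41.3 and 41.2 at 24 h, and then 39.7 and 39.9 at 48 h. The 6 h libraries overlapped those of 0 h, and all later libraries lay far below it. The log2 fold change was -0.02 ± 0.13 (SE) at 6 h, -0.90 ± 0.13 at 12 h, -1.37 ± 0.13 at 24 h and, after 48 h, -1.42 ± 0.13 (edgeR, adjusted p = 0.96, 0.0043, 0.00017 and 4.3e-05). That of *MRTO4* at 12 h was -0.71, and still called, without 12 h replicate 1. *EIF6*, which keeps the new subunit from joining the small one too early, was lower at 24 and 48 h (-0.75 and -0.96). *SBDS*, which helps to remove *EIF6* protein, was lower from 12 h on (-0.92, -0.87 and -0.64). Its 12 h change was -0.60 without 12 h replicate 1 and -1.32 without 12 h replicate 2, and it was called in 5 of 10 fits that left out a library. The GTPase *LSG1* and the placeholder *RSL24D1* were lower at 24 h (-0.53 and -0.41) and 48 h (-0.52 and -0.36). Of the 10 fits that left out a library, 7 kept the 24 h call of *SBDS* and 4 its 48 h call. For *EIF6* these were 2 and 8 fits, for *LSG1* 6 and 7, and for *RSL24D1* 3 and 2.

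*EFL1* (chr15:82130206-82262773, minus strand), the GTPase that works with *SBDS* in releasing *EIF6*, was the only member called higher than at 0 h with all libraries in the fit. It had 44.1 and 45.8 CPM at 0 h, 43.7 and 44.1 at 6 h, 43.8 and 40.8 at 12 h, 42.8 and 41.6 at 24 h, and then 66.4 and 70.8 at 48 h. Its level stayed within 40.8 to 45.8 CPM up to 24 h, and both 48 h libraries were above all others. The log2 fold change was -0.09 ± 0.11 (SE) at 24 h and 0.61 ± 0.11 at 48 h (edgeR, adjusted p = 0.63 and 0.0019), and the 48 h call was kept in all 10 fits that left out a library. In TPM, *EFL1* went from 32.6 ± 1.2 (SD, n = 2) at 0 h to 52.4 ± 3.9 at 48 h, while its partner *SBDS* went from 392 ± 20 to 265 ± 27 TPM.

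*NMD3*, the adaptor that links the large subunit to the export receptor, was not called against 0 h at any time with all libraries in the fit. It measured 110 and 103 CPM at 0 h, 69.6 and 67.4 at 6 h, 113 and 83.7 at 12 h, 117 and 95.5 at 24 h, and then 117 and 114 at 48 h. Both 6 h libraries were below and both 48 h libraries above those of 0 h. Its log2 fold change was -0.63 ± 0.15 (SE) at 6 h and 0.12 ± 0.15 at 48 h (edgeR, adjusted p = 0.059 and 0.59), and without 12 h replicate 1 the 6 h change was -0.63 with adjusted p = 4.0e-06 and the 12 h change was -0.34 with adjusted p = 0.025.

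Times of treatment were then compared with each other, which leaves the 0 h libraries out of the contrast. Between 12 and 6 h, 1 member was lower, *MRTO4* (log2 difference -0.87), where 0.223% of all genes tested were. Between 24 and 12 h, 6 members were lower, *BOP1* (-0.87), *EBNA1BP2* (-0.75), *NOC2L* (-0.65), *URB2* (-0.56), *RRP1B* (-0.52) and *NOL9* (-0.50), beside 4.15% of all genes (3.43% were higher). Between 48 and 24 h, *BOP1* was lower (-0.55) and *EFL1* higher (0.70), beside 1.28% and 1.89% of all genes. Between 48 and 6 h, a comparison added after the values were seen, 33 members were lower beside 17% of all genes, and 2 were higher, *NMD3* (0.75) and *EFL1* (0.64), beside 16.2%. *GTPBP4* and *NOC3L*, already low at 6 h, had log2 differences of -0.15 ± 0.13 (SE) and -0.10 ± 0.15 in that comparison (edgeR, adjusted p = 0.44 and 0.66). The neighbouring comparisons rested on single libraries. For 12 h against 6 h, 0 members were lower without any one library of the other times, 18 without 12 h replicate 1 (2.59% of all genes lower) and 25 without 12 h replicate 2 (25.6% of all genes lower), where 5 were higher beside 21.1% of all genes. For 24 h against 12 h the members' median log2 difference was -0.27 and -0.17 without 12 h replicate 1 and 2. It was -0.22 and -0.16 without 24 h replicate 1 and 2. The count of lower members was 3 without any one library of 0, 6 or 48 h, beside 2.24 to 2.34% of all genes. For 48 h against 24 h it was 10 without either 12 h library, beside 11 to 11.3% of all genes, where 3 were higher beside 9.94 to 10.1%, and it was 0 without any other. For 48 h against 6 h the members' median log2 difference was -0.57 and -0.54 without 6 h replicate 1 and 2. It was -0.51 and -0.57 without 48 h replicate 1 and 2.

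Other genes of ribosome production were read from the same fit, and in each of the 4 lists below edgeR called 0 genes higher at 48 h. Of 27 further large subunit factors tested, 20 were lower (median log2 fold change -0.66), and 1 was higher at an unadjusted p under 0.05 and by DESeq2. Of 53 genes of the small subunit processome and its assembly 38 were lower (median -0.73), and of 34 genes of the RNA polymerase I and III machinery 18 were lower (median -0.54). Of 47 mRNAs of large subunit ribosomal proteins 11 were lower (median -0.37). In these last 3 lists 0 genes were higher at an unadjusted p under 0.05 or by DESeq2. At 24 h edgeR called 0 of the 47 ribosomal protein mRNAs in either direction, with 6 lower at an unadjusted p under 0.05 and 3 lower by DESeq2. At that time 37 of the 48 assembly factors were lower, and of all genes tested 10.2% were lower and 9.73% higher. The spread behind these calls includes 12 h replicate 1, in which ribosomal protein mRNAs took 2.79% of counts, less than in any other library. Counts for these lists without that library are not given here. The difference between the lists was not tested.

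**Figure D5:**
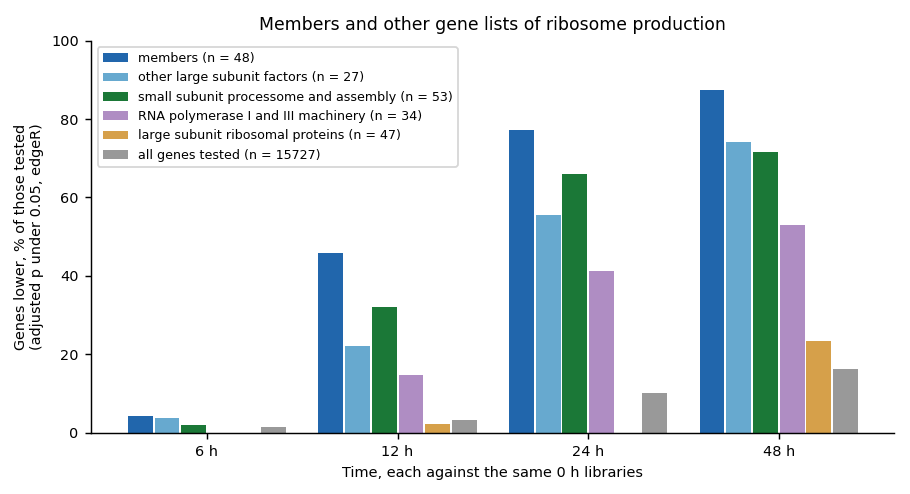
Share of the genes tested in each list that were lower than at 0 h (y axis, percent, from 0 to 100; adjusted p under 0.05, edgeR) at 6, 12, 24 and 48 h. At 48 h the members reach 87.5%, the other assembly and polymerase lists 52.9 to 74.1%, the large subunit ribosomal proteins 23.4% and all genes tested 16.3%.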

How the data were processed

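RNA from MDA-MB-231 cells at 0, 6, 12, 24 and 48 h of dasatinib (2 biological replicates each) was sequenced by the study. According to the methods and processing notes, reads went through FastQC, MultiQC and Trim Galore, then STAR 2.5.2b against hg38, then featureCounts; the gene annotation and strand setting are not given in the sources used here. The authors deposited raw counts and TPM per gene symbol for each library; the deposited TPM equals counts divided by a fixed length per gene and scaled to a fixed total, so that TPM alone was used to set genes beside each other.

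Groups and replicate numbers came from the labels. The main test was run in edgeR 4.0.16 under R 4.3.3 (filter on low counts by group, TMM, robust quasi-likelihood test with a mean per time over all 10 libraries, Benjamini-Hochberg adjustment over 15727 genes within a comparison, threshold 0.05). Standard errors (SE) were derived from the fold change and the F statistic. CPM values are TMM-normalised. The labels call replicates biological and say no more, so p-values measure the spread between these samples. On simulated counts modelled on 48 and 0 h (14811 genes in the fit), 28% of genes changed 1.5-fold, 67% changed 2-fold and 94% changed 4-fold were recovered, and 8 unchanged genes were called. The main fit takes its spread from all 10 libraries over 15727 genes, so these shares may not hold for it. Positions and exon overlaps are from GENCODE on GRCh38 and promoter windows from RefSeq.

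The members and all lists were chosen with earlier results of these data known. Values in each library are given for the member of each role class with the smallest adjusted p at 48 h, members called at 6 h, members called against the common direction, the largest and smallest change at 48 h, members never called, the highest TPM, and the pairs *RRP1* and *RRP1B*, and *GNL3* and *GNL3L*. Alternatives were no filter, DESeq2-type size factors, library totals alone, DESeq2 1.42.0, edgeR on the 2 groups alone, a replicate block, limma 3.58.1 on log2(TPM + 1) and log2(TPM + 0.1) with at least 1 TPM in 2 libraries or no filter, each library left out, thresholds of 0.01 and 0.1, and a shorter promoter window; leaving out both 12 h libraries, comparing 48 h with 6 h, the 50 bases after the start and the promoters of genes that passed the filter were added after the data were seen. With a library left out, the remaining sample of that time is taken to vary as the other times do. The precision is limited by 2 libraries per time.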

Additional observations from a re-analysis of the deposited data

Results flagged for a closer look

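Changes of 8 members differed between neighbouring times by the test of that difference (edgeR, n = 2 per time). They comprise every member whose difference passed the threshold over all genes tested.

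*MRTO4* was lower at 12 h than at 6 h by a log2 difference of -0.873 (adjusted p = 0.035), after -0.02 at 6 h and -0.90 at 12 h against 0 h. The difference was called in 2 of 10 fits that left out a library, and it was -0.69 without 12 h replicate 1.

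From 12 to 24 h the log2 differences were -0.868 for *BOP1* (adjusted p = 0.0035), -0.745 for *EBNA1BP2* (0.0047) and -0.655 for *NOC2L* (0.011), each called in 8 of 10 fits that left out a library. They were -0.558 for *URB2* (adjusted p = 0.042), -0.496 for *NOL9* (0.038) and -0.521 for *RRP1B* (0.046), each called in 2 of 10 such fits. Without 12 h replicate 1 the difference was -0.44 for *URB2* and -0.35 for *RRP1B*, both still called.

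From 24 to 48 h *BOP1* fell further, with a log2 difference of -0.553 (adjusted p = 0.039), called in 2 of 10 fits that left out a library. *EFL1* rose in the same interval by 0.700 (adjusted p = 0.0093), after changes of -0.09 at 24 h and 0.61 at 48 h against 0 h, and the difference was called in 6 of 10 such fits.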

How the results depend on the processing

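No called change or count reversed under any alternative run. Changes near 0 that were not called could take either sign with a library left out, such as those at 48 h of *PPAN* (-0.21 to 0.26) and *DDX24* (-0.04 to 0.05). The count of lower members at 48 h (42) stayed within 1.5 times in all of them, with 1 member higher each time, and that at 24 h (37) in all but those without a 24 h library (24 and 21). With a library left out, lower members numbered 0 to 16 (6 h), 2 to 34 (12 h), 21 to 44 (24 h), 31 to 43 (48 h), 0 to 25 for 12 h against 6 h, 0 to 20 for 24 h against 12 h, 0 to 10 for 48 h against 24 h and 19 to 40 for 48 h against 6 h. Higher members numbered 0 to 1 at 6 h, 0 to 5, 0 to 7 and 0 to 3 between neighbouring times, and 2 to 3 for 48 h against 6 h. The share of all genes called moved with these counts, so they do not describe the members alone. The members' median log2 fold change ranged from -0.17 to -0.13 (6 h), -0.51 to -0.43 (12 h), -0.78 to -0.68 (24 h) and -0.79 to -0.74 (48 h).

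At 6 h the count of lower members was 4 with no filter, 5 with DESeq2, 17 (and 1 higher) with DESeq2 or edgeR on the 2 groups alone, 1 with limma on log2(TPM + 1), 0 with that and no filter, 16 (and 1 higher) with both 12 h libraries out, 0 at a threshold of 0.01 and 5 at 0.1. Over all genes, those lower numbered 414 of 22945 with no filter and 451 of 14493 with DESeq2. They were 1466 of 13176 (1340 higher) with DESeq2 and 1580 of 14476 (1386 higher) with edgeR on the 2 groups alone. With limma they were 153 of 14206, or 100 of 22945 without a filter, and with both 12 h libraries out 1601 of 15473 (1609 higher). At 12 h the count of lower members was 7 with DESeq2 on the 2 groups alone (112 of 15288 genes lower). It was 0 with edgeR on the 2 groups alone, a fit that called 0 of 14603 genes in either direction. In that fit 23 members had an unadjusted p under 0.05. With limma it was 14 at either pseudocount (265 and 269 of 14206 genes lower) and 8 with no filter (161 of 22945). At a threshold of 0.01 it was 8. For 12 h against 6 h it was 17 lower and 1 higher with no filter (1241 of 22945 genes lower, 983 higher) or DESeq2 (509 of 13158 lower, 709 higher). It was 0 with DESeq2 (4 of 14199 genes lower) or edgeR (0 of 14657) on the 2 groups alone. It was also 0 with limma on log2(TPM + 1) (3 of 14206) or at a threshold of 0.01, and 8 at 0.1. For 24 h against 12 h it was 3 with library totals alone (554 of 15727 genes lower) or limma without a filter (291 of 22945). It was 12 with DESeq2 (1082 of 15382) or a threshold of 0.1, and 2 at 0.01. On the 2 groups alone it was 1 with DESeq2 (162 of 12868) and 0 with edgeR (0 of 14903). For 48 h against 24 h it was 2 with no filter (611 of 22945 genes lower) and 3 with DESeq2 (450 of 13603). On the 2 groups alone it was 7 lower and 2 higher with DESeq2 (1577 and 1621 of 13252 genes). With edgeR on them it was 9 lower and 3 higher (1929 and 1876 of 14998). With both 12 h libraries out it was 10 lower and 3 higher (1852 and 1671 of 15473). It was 0 with limma or at 0.01. The cause of these differences was not tested. For thresholds of 0.01 and 0.1 the share of all genes is not given. Those counts therefore do not compare the members with other genes.

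The members' median was -0.11, -0.36, -0.61 and -0.69 at the 4 times with library totals alone, which moved the median of all genes tested to 0.04, 0.09, 0.14 and 0.09, and -0.72 at 24 h with DESeq2-type size factors. With limma on log2(TPM + 1) it was -0.35, -0.65 and -0.66 at 12, 24 and 48 h, with log2(TPM + 0.1) -0.35, -0.65 and -0.69, and without a filter -0.34, -0.63 and -0.65. Library totals alone gave 876 genes higher and 328 lower at 12 h beside 618 and 506, and 2004 and 1128 at 24 h beside 1531 and 1612.

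No strong difference shared by replicate number was seen, since the correlation of replicate differences between times was -0.04 to 0.10. This cannot show whether equal numbers were prepared together, and the labels do not say. With the replicate block 3 members were lower at 6 h, 41 at 48 h, 4 for 24 h against 12 h and 0 for 48 h against 24 h (1 higher). Over all 15727 genes those lower numbered 214, 2556, 589 and 184 (277 higher).

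With 2 libraries per time, small changes pass rarely, and rows with few counts, such as those of *NOP2* and *PPAN*, carry wide errors. By construction of the shorter window, the share of member promoters with an E-box fell from 26.8% to 9.76% in the 250 bases before the start alone, where 10.6% of the genes that passed the filter held it.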
